A study of Mus musculus with 2 samples.

Results

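The core genes of the Polycomb repressive complexes were described in CH12.LX cells, a mouse line established from a B-cell lymphoma. They are 10 genes, Ezh1, Ezh2, Eed, Suz12, Jarid2, Rbbp4, Rbbp7, Bmi1, Ring1 and Rnf2, chosen by name, out of 43346 annotated genes. All 10 were found in both gene tables by matching the identifier, without its version, to the GENCODE mouse annotation. RNA was sequenced from 2 libraries, biological replicates 1 and 2 of separate biosamples from this line, whose strain of origin is B10.H-2aH-4bp/Wts. The labels present the line as the mouse analog of GM12878, a human line of transformed B cells, and give no treatment and no second condition. Both libraries form 1 group, so levels can be described and compared between genes per length, but no test between conditions exists. It is a single tumour line, and a level in it does not stand for normal B cells.

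Polycomb proteins hold genes in a repressed state through marks on histones. Polycomb repressive complex 2 (PRC2) methylates histone H3 at lysine K27, with EZH2 or EZH1 as its methyltransferase, SUZ12 and EED as its obligate partners, and RBBP4 or RBBP7 as a histone-binding subunit. Polycomb repressive complex 1 (PRC1) ubiquitinates histone H2A through RNF2 (also called RING1B) or RING1, each paired with a PCGF protein such as BMI1. In B cells EZH2 is best known from the germinal centre, where it restrains differentiation, and BMI1 is known as a repressor of the Cdkn2a locus.

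Sequencing depth was similar in both libraries. The gene tables held 24379174 expected counts in replicate 1 and 23517901 in replicate 2, of which the 10 Polycomb genes took 50989 and 50966, or 0.209% and 0.217%. Levels are given in TPM, relative transcript abundance per length scaled so that every library has an equal total, with mean ± SD over the 2 replicates (n = 2). Mitochondrial genes took 9.24% and 11.4% of the TPM, and ERCC spike-in RNAs added 0.321% and 0.258% relative to the gene counts. All 6 B-cell markers reached 1 TPM in both replicates, with summed levels of 1333 and 1371 TPM. The 5 T-cell markers summed to 0.490 and 0.510 TPM and the 5 myeloid markers to 0.810 and 0.780 TPM, and none of them reached 1 TPM. Of 5 stromal and endothelial markers only Pecam1 passed, at 14.8 ± 0.983 TPM, and of 4 erythroid markers only Hba-a1, at 3.60 ± 0.615 TPM, with Hbb-bs at 0 counts. The labels name the cells female, while the Y-linked demethylase gene Uty stood at 12.9 and 16.1 TPM. The level of this gene goes against that label, and no other Y-linked gene is reported here.

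All 10 Polycomb genes were expressed, here defined as 1 TPM or more in both replicates. The same threshold was passed by 25.4% of all genes and 45.9% of protein-coding genes. The median of the 10 genes was 63.7 TPM and their summed level 999 TPM in replicate 1 and 1015 TPM in replicate 2. Rbbp7 alone supplied about as much as the other 9 genes together, at 501.5 and 507.0 TPM. The order of the mean levels was Rbbp7, Suz12, Rnf2, Eed, Bmi1, Rbbp4, Ezh2, Ring1, Ezh1 and Jarid2. Neighbours in this order overlapped in their replicate values for 2 pairs, Eed with Bmi1 and Rbbp4 with Ezh2, and at the other 7 steps the TPM values of the replicates did not overlap. The last step, from Ezh1 to Jarid2, was not separated by the deposited intervals or the posterior means. The intervals of Ring1 and Ezh1 also overlapped in replicate 2, at 7.91 to 11.9 and 6.27 to 8.75 TPM, though not in replicate 1. The widest steps were from Rbbp7 to Suz12, 3.98-fold, and from Ezh2 to Ring1, 5.94-fold, which left Ring1, Ezh1 and Jarid2 as a low trio. In bulk RNA, a low level in every cell and a high level in few cells cannot be told apart.

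**Figure D1:**
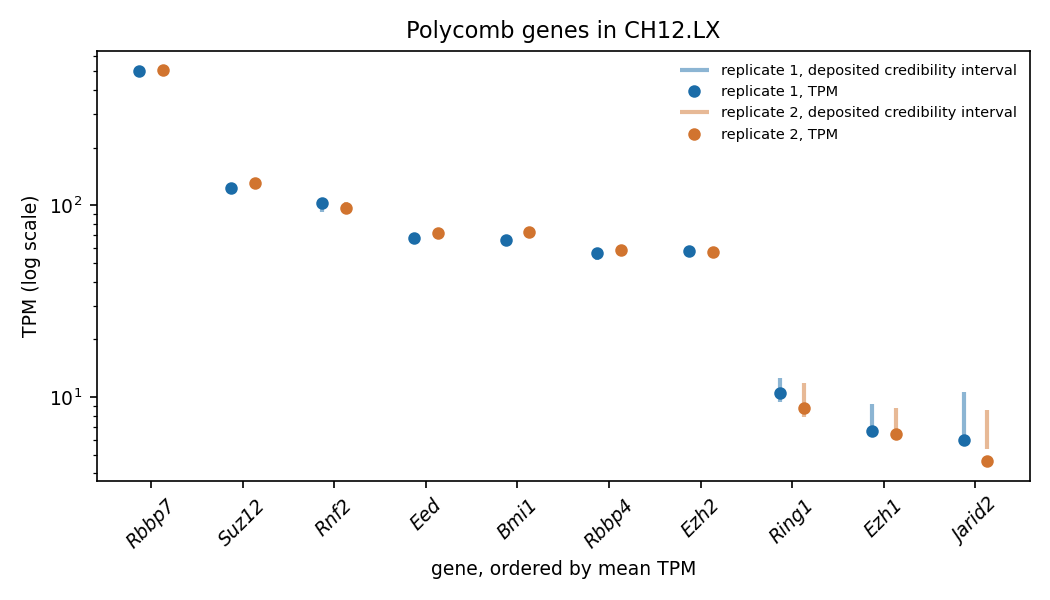
TPM of the 10 Polycomb genes in replicate 1 (blue) and replicate 2 (orange) on a log scale, ordered by mean, with the deposited credibility interval of each value as a vertical line. Rbbp7 stands at 501.5 and 507.0 TPM, 6 genes lie between 56.6 and 130.4 TPM in both replicates, and Ring1, Ezh1 and Jarid2 lie at or below 10.5 TPM.

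Ezh2, which encodes the main methyltransferase of PRC2 in dividing cells, lies on the minus strand of chromosome 6 (ENSMUSG00000029687.12, 47530139 to 47595341; all coordinates are GRCm38, also named mm10). It stood at 57.7 TPM in replicate 1 and 56.9 TPM in replicate 2, from 2702 and 2468 counts. Its mean of 57.3 ± 0.544 TPM was at percentile 77.5 among expressed protein-coding genes. The replicates differed by less than the width of either deposited credibility interval, 54.6 to 59.9 TPM and 54.2 to 60.0 TPM. The authors' intervals describe uncertainty within a library, not between replicates, and their level is not given in the sources used here. They are not limited to the assignment of reads to a gene, since the posterior SD of the Ezh2 count was 0 in both replicates.

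Ezh1, the paralog with weaker methyltransferase activity that is prominent in resting cells, lies on chromosome 11 (ENSMUSG00000006920.10, 101191115 to 101226463, minus strand). It stood at 6.67 and 6.46 TPM, from 514 and 448 counts. Ezh2 was 8.64 and 8.81 times as abundant as Ezh1 in the 2 replicates, a ratio of 8.73 ± 0.114, and held 89.7% ± 0.121 of the summed TPM of the pair. With raw counts and no length correction the ratio was 5.38. The deposited interval of Ezh1 in replicate 1, 6.69 to 9.16 TPM, lay above its own TPM value, and its posterior mean was 7.85 and 7.47 TPM. The coding sequences of Ezh2-201 and Ezh1-202, the leading transcripts, were identical at 67.1% of 2171 aligned bases. Their longest identical stretch was 17 bases, in capitals below with 15 bases on each side, taken from the GENCODE M21 transcripts. It is shown because short shared stretches limit how many reads could fit both genes.
Ezh2-201: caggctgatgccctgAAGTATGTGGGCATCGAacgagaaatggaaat
Ezh1-202: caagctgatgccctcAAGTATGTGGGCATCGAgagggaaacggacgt

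Ezh2 RNA was spread over 3 coding transcripts whose coding sequences differ by short in-frame stretches. Ezh2-201 held 72.3% and 62.0% of the gene's TPM in the deposited transcript tables, Ezh2-202 held 9.82% and 13.6%, and Ezh2-204 held 9.28% and 13.1%. The deposited intervals of Ezh2-201 overlapped between replicates, 34.6 to 42.1 and 28.2 to 36.5 TPM. Ezh2-202 lacks the whole exon 14 of Ezh2-201, 126 bases at chr6:47541845-47541970 on the minus strand. As annotated in GENCODE M21, 672 bases of Ezh2-201 are absent from Ezh2-202 in all, of which these 126 are coding and the rest untranslated. The deposited lengths of Ezh2-201 and Ezh2-204 were shorter than in GENCODE M21, 2652 against 2787 and 2640 against 2775 bases. That exon encodes part of the cysteine-rich CXC region just before the catalytic SET domain. Ezh2-204 lacks 27 bases of exon 3 of Ezh2-201, at chr6:47576536-47576562, and carries 15 bases in its exon 8, at chr6:47551717-47551731, that Ezh2-201 lacks. All 3 coding stretches have lengths that are multiples of 3, so the reading frame is kept. The differing bases are in capitals, with 15 bases of the carrying transcript on each side, 5′ to 3′ along the RNA.
Ezh2-201, exon 14: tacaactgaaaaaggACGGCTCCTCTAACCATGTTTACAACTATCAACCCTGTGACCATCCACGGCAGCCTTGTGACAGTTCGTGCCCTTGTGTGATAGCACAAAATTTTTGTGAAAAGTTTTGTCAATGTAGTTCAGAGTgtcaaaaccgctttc
Ezh2-201, part of exon 3: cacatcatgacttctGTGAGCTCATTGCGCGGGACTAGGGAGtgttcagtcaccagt
Ezh2-204, part of exon 8: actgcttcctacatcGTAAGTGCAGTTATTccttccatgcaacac

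The shares of the Ezh1 transcripts depended on the estimate used. Ezh1-202 held 83.9% of the gene's TPM in replicate 1 and 67.7% in replicate 2, and Ezh1-203, a coding transcript that shares all but 14 bases of Ezh1-202, held 0.0400% and 14.7%. By the authors' posterior estimates the shares were 45.4% and 42.5% for Ezh1-202 and 23.5% and 26.5% for Ezh1-203. The posterior SD of the Ezh1-203 count was 91.5 and 117, larger than the count itself, 0.210 and 75.8. The non-coding Ezh1-207 held 12.2% in replicate 2, from 10.6 counts, and 0 counts in replicate 1.

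Suz12, whose protein is the scaffold on which PRC2 assembles, was the highest of the Polycomb genes after Rbbp7. It lies on chromosome 11 (ENSMUSG00000017548.11, 79993106 to 80034123, plus strand) and stood at 123 and 130 TPM, a mean of 127 ± 5.09 TPM, from 10454 and 10740 counts. Eed, which encodes the reader of trimethylated H3K27, lies on chromosome 7 (ENSMUSG00000030619.8, 89954654 to 89980983, minus strand) and stood at 68.0 and 71.8 TPM, from 2601 and 2626 counts. Suz12 was 1.81 ± 0.00146 times Eed, so both genes moved by the same factor between replicates. Eed was 1.22 ± 0.0596 times Ezh2, and Suz12 was 2.21 ± 0.110 times Ezh2. The messages of the 3 obligate PRC2 partners were therefore not at equal levels by TPM, with the methyltransferase pair lowest at a summed 63.8 ± 0.693 TPM. In replicate 1 the sum of the pair, 64.3 TPM, lay within the deposited interval of Eed, 63.6 to 69.1 TPM. In replicate 2 the sum, 63.4 TPM, lay below that interval, 67.6 to 73.6 TPM. The step from the pair to Eed was thus not separated in replicate 1.

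Suz12 RNA came from 2 coding transcripts. Suz12-201 held 78.6% and 86.1% of the gene's TPM and Suz12-206 held 19.4% and 12.99%, or 23.9 and 16.9 TPM. The deposited intervals of Suz12-206 overlapped between replicates, 19.1 to 29.6 and 12.4 to 22.1 TPM, while those of Suz12-201 did not, 87.4 to 98.3 and 104 to 114 TPM. Suz12-206 lacks exon 4 of Suz12-201, 69 bases at chr11:79999057-79999125 on the plus strand, again a multiple of 3. The skipped exon is in capitals, with 15 bases of its neighbouring exons.
Suz12-201, exon 4: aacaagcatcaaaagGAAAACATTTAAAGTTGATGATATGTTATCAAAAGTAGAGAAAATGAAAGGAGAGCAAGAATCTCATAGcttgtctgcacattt

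Eed was nearly all 1 transcript, with Eed-201 at 99.3% and 98.8% of its TPM.

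Rbbp7 and Rbbp4 encode close WD-repeat proteins that bind histones in PRC2 and in several other chromatin complexes. Rbbp7, on the X chromosome (ENSMUSG00000031353.9, 162760402 to 162779092, plus strand), had a mean of 504 ± 3.89 TPM, percentile 97.7 among expressed protein-coding genes, from 20337 and 19958 counts. Its TPM lay above the deposited interval in both replicates, 479 to 496 and 488 to 504 TPM, with posterior means of 488 and 496 TPM. Of the 9862 expressed protein-coding genes, 661 and 347 lay above their interval in replicates 1 and 2. Rbbp4, on chromosome 4 (ENSMUSG00000057236.10, 129307100 to 129335370, minus strand), stood at 56.6 and 58.8 TPM, from 4570 and 4489 counts. Rbbp7 was 8.87 and 8.63 times Rbbp4, a ratio of 8.75 ± 0.172, and held 89.7% ± 0.181 of the pair. Stated the other way, Rbbp4 was 0.114 ± 0.00225 times Rbbp7, a value that moved to 0.0748 with counts per kilobase of all annotated exons and to 0.225 with raw counts. The pair together was 4.43 ± 0.135 times Suz12.

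The pair is alike enough in sequence to ask whether reads could be shared. Their leading transcripts were identical at 78.2% of 1272 aligned coding bases, the highest of the 3 paralog pairs compared, with a longest identical stretch of 20 bases (capitals).
Rbbp7-201: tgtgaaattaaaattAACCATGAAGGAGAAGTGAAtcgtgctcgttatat
Rbbp4-201: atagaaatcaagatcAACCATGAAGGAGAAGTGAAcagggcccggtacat

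Posterior SDs of the gene counts of the 10 Polycomb genes ran from 0 to 0.190, so the authors' model left almost no uncertainty in assigning their reads to a gene. Near-identical copies elsewhere in the genome took few counts. Gm6382, a processed pseudogene on the X chromosome (142210884 to 142211825) with 97.1% identity to Rbbp7-201 over 942 bases, held 148 and 161 counts, 0.728% and 0.807% of those of Rbbp7. Gm5946, a transcribed pseudogene with 97.0% identity to Bmi1 over 2648 bases, held 3 and 5.02 counts. Gm4800, a processed pseudogene with 90.9% identity to Rbbp4, was not analysed here.

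Several gene models overlap Polycomb genes on the opposite strand. Sync and Gm26722, which share 782 and 796 exonic bases with Rbbp4, had 0 counts in both libraries. Txlng overlaps the 3′ end of Rbbp7 by 174 exonic bases and stood at 22.4 and 25.3 TPM, and Trmt1l overlaps Rnf2 by 158 bases and stood at 16.1 and 17.3 TPM. E230029C05Rik, which shares 261 bases with Eed, stood at 0.270 and 0.280 TPM, and Gm26625 and Gm26563, which overlap Ezh2 and Suz12, had 0 counts. Whether the counting used the strand is not given in the sources used here. The posterior SD of the gene count was 0 in both replicates for Rbbp4, Eed, Ezh2, Suz12 and Rnf2. For Rbbp7 it was 0 and 0.0400. The authors' model thus assigned the reads of these genes with almost no uncertainty, and whether this rests on the strand was not tested.

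Jarid2, which encodes a DNA-binding partner that helps place PRC2 on chromatin, had the lowest TPM of the 10 genes, at a level close to that of Ezh1. It lies on chromosome 13 (ENSMUSG00000038518.11, 44729474 to 44921643, plus strand) and stood at 5.99 and 4.63 TPM, a mean of 5.31 ± 0.962 TPM at percentile 19.6, from 541 and 495 counts. Ezh2 was 9.63 and 12.3 times Jarid2, a ratio of 10.96 ± 1.88. The TPM of Jarid2 lay below its deposited interval in both replicates, 6.38 to 10.6 and 5.37 to 8.56 TPM, and its posterior mean was 8.34 and 6.89 TPM. By mean posterior TPM Jarid2 at 7.615 and Ezh1 at 7.66 were nearly level, with Jarid2 the higher in replicate 1 and Ezh1 in replicate 2. Among the 9862 expressed protein-coding genes, 2.47% and 2.79% lay below their interval in replicates 1 and 2. The gene has 16 transcripts in the tables, of which Jarid2-208 held 66.6% and 80.4% of the TPM. Jarid2-213, a 344-base transcript, was given 10.8% in replicate 1 from 1.64 counts and had 0 counts in replicate 2. By the authors' posterior estimates the shares were 44.6% and 51.0% for Jarid2-208 and 13.4% and 7.25% for Jarid2-213. The transcript shares of Jarid2 thus depended on the estimate used.

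The 3 pairs of paralogs each had 1 dominant gene, and for PRC1 this was Rnf2. Rnf2, the more active of the H2A ubiquitin ligases, lies on chromosome 1 (ENSMUSG00000026484.9, 151458004 to 151500955, minus strand) and stood at 103 and 97.0 TPM, a mean of 99.8 ± 3.93 TPM, from 4970 and 5273 counts. Ring1, its paralog, lies on chromosome 17 (ENSMUSG00000024325.8, 34020792 to 34024680, minus strand) and stood at 10.5 and 8.76 TPM, from 402 and 321 counts. Rnf2 was 9.76 and 11.1 times Ring1, a ratio of 10.4 ± 0.929, and held 91.2% ± 0.716 of the pair. Ring1 lies 20.4 kb from H2-K1, inside the H-2 complex for which the strain is named, and strain alleles of that region were not examined. The coding sequences were identical at 66.2% of 993 aligned bases, with a longest identical stretch of 14 bases (capitals).
Rnf2-201: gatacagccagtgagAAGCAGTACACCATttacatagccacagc
Ring1-201: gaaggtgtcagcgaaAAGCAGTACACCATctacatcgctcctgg

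The transcripts of Rnf2 differed more between replicates than the gene did. The coding Rnf2-201 held 73.3% and 90.2% of the TPM, or 75.2 and 87.5 TPM, with deposited intervals that did not overlap, 69.7 to 75.6 and 82.0 to 87.2 TPM. Rnf2-202, a 570-base transcript annotated as non-coding, was given 16.2 TPM from 118 counts in replicate 1 and 0 counts in replicate 2. Its deposited interval reached down to 7.43 TPM in replicate 1 and up to 8.63 TPM in replicate 2. Of the bases of Rnf2-202, 95.4% lie within exons of Rnf2-201. Counted over protein-coding transcripts only, Rnf2 stood at 83.3 TPM and the ratio to Ring1 was 9.08. Ring1-201 held 96.3% and 96.9% of Ring1.

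Bmi1, also called Pcgf4, encodes the PCGF partner of canonical PRC1 and lies on chromosome 2 (ENSMUSG00000026739.9, 18677018 to 18686629, plus strand). It stood at 66.4 and 73.0 TPM, a mean of 69.7 ± 4.65 TPM, from 3898 and 4148 counts. Among the 6 PCGF genes, alternative partners that set which form of PRC1 is built, Bmi1 held 51.2% ± 1.26 of a summed 136 ± 5.72 TPM. Pcgf6 followed with 23.7% ± 0.249, Pcgf5 with 13.8% ± 1.79, Pcgf1 with 7.10% ± 0.206 and Pcgf3 with 3.59% ± 0.171. Pcgf2, the closest paralog of Bmi1 and its alternative in canonical PRC1, held 0.509% ± 0.0942, at 0.760 and 0.620 TPM from 22 and 20 counts. Bmi1 was 87.4 and 118 times Pcgf2, a ratio of 102.6 ± 21.5, which was 59.1 with posterior mean TPM, 170.6 per kilobase of all annotated exons and 192.3 with raw counts. The size of this ratio thus varied with the estimate, while its direction was the same in both replicates and in every alternative computed. Bmi1-202 held 57.2% and 56.2% of the Bmi1 TPM and Bmi1-201 40.2% and 41.8%. Both encode the same 972 coding bases and differ only in their untranslated parts.

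**Figure D2:**
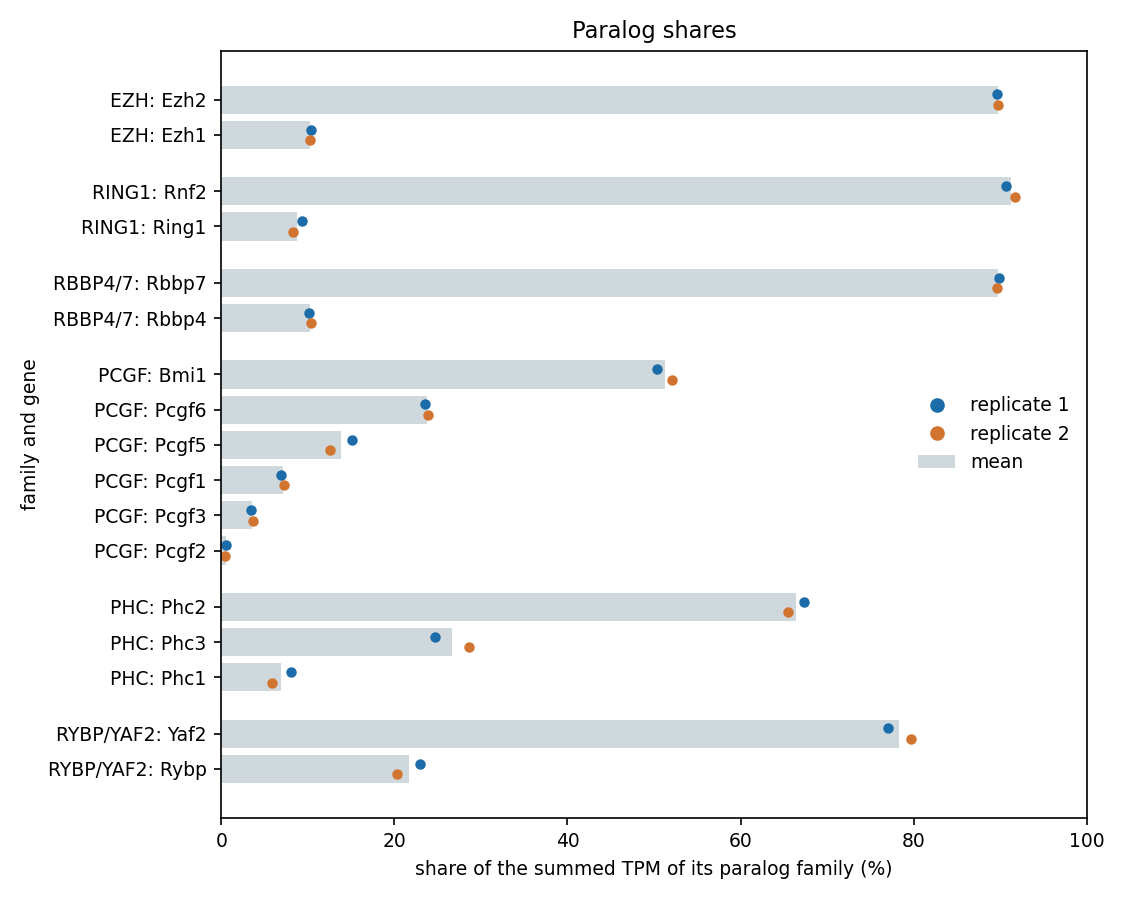
Share of each gene in the summed TPM of its paralog family, with replicates 1 (blue) and 2 (orange) as points and their mean as a bar starting at 0. Ezh2, Rnf2 and Rbbp7 each hold about 90% of their pair, and Bmi1 holds 50.3% and 52.1% of the PCGF genes.

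**Figure D3:**
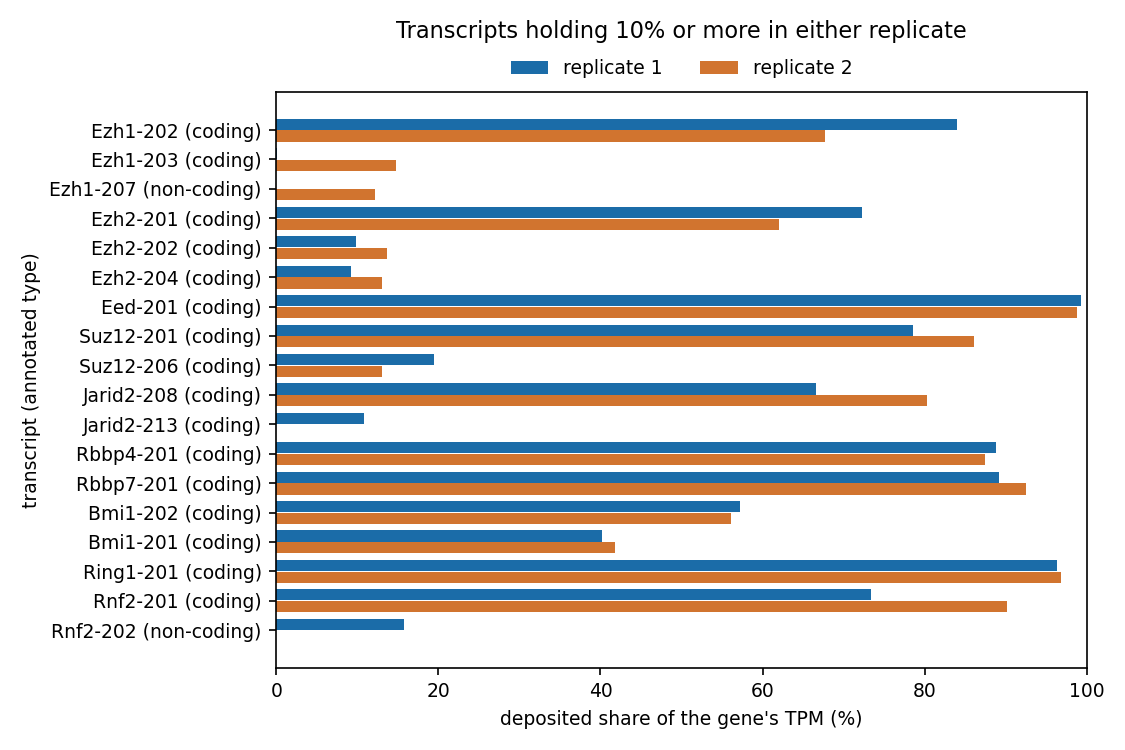
Deposited share of the gene's TPM for the 18 transcripts that held 10% or more in either replicate, with replicate 1 in blue and replicate 2 in orange. Eed and Ring1 rest on 1 transcript each, Bmi1 is split between 2, and Ezh1-203, Ezh1-207, Jarid2-213 and Rnf2-202 hold a share in only 1 replicate (Ezh1-203 at 0.0400% in the other).

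The partner genes of both complexes were mostly expressed, though with a lower median level than the 10 core genes. Of 60 partner genes in 5 lists, 50 reached 1 TPM in both replicates, or 83.3%, where 45.9% of protein-coding genes did. Their median was 9.98 TPM, against 63.7 TPM for the 10 core genes. The levels overlapped, and Skp1a, at 321 ± 50.3 TPM, was above every core gene but Rbbp7. Among PRC2 accessory genes 6 of 7 passed, with a median of 4.82 TPM. Aebp2, whose protein joins JARID2 in one form of PRC2, was highest at 52.4 ± 5.68 TPM, 10.1 ± 2.91 times Jarid2. This ratio uses Jarid2 TPM values that lay below their deposited intervals. Posterior means were 49.65 and 57.33 TPM for Aebp2 and 8.34 and 6.89 TPM for Jarid2, which makes the ratio smaller. Mtf2, a Polycomb-like protein that binds CpG-rich DNA, followed at 49.9 ± 7.02 TPM and held 75.3% ± 2.04 of the summed TPM of the 3 Polycomb-like genes. Its relatives Phf19, chosen after its value was seen, and Phf1 held 23.3% ± 1.73 and 1.45% ± 0.315. Phf1 at 0.950 ± 0.0990 TPM and Epop at 1.445 ± 0.219 TPM were the lowest of this list.

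Canonical PRC1 adds a CBX reader of trimethylated H3K27 and a PHC protein to a RING and PCGF pair, and its genes were low. Of 11 genes on this list 9 passed, with a median of 5.27 TPM. Among the Polycomb Cbx genes, Cbx6 stood at 7.795 ± 0.771 TPM, Cbx8 at 5.31 ± 0.735 TPM, Cbx7 at 5.27 ± 1.37 TPM and Cbx2 at 2.075 ± 0.163 TPM. Cbx8 and Cbx7 exchanged places between replicates, so their order was not fixed by these libraries. The Phc genes summed to 27.4 ± 0.0849 TPM, led by Phc2 at 18.2 ± 0.410 TPM with 66.4% ± 1.29, then Phc3 with 26.6% ± 2.79 and Phc1 with 6.94% ± 1.499. Pcgf2 and Scml2, the latter at 0.140 and 0.0200 TPM, were the 2 that did not pass.

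Genes of variant PRC1, the forms in which RYBP or YAF2 takes the place of a CBX protein, were higher. Of 24 genes 21 passed, with a median of 20.02 TPM. Skp1a, shared with SCF ubiquitin ligases, was highest at 321 ± 50.3 TPM, and Tfdp1, a dimer partner of E2F factors, stood at 239 ± 0.700 TPM. Both have large roles outside Polycomb complexes, so their levels do not measure PRC1. Other genes of this list are also less close to PRC1, so its median depends on which genes were listed. Among genes closer to PRC1, chosen after their values were seen, Yaf2 stood at 62.5 ± 3.23 TPM, Kdm2b, which recruits a PCGF1 form to CpG islands, at 56.0 ± 3.797 TPM, and Rybp at 17.2 ± 1.05 TPM. Rybp and Yaf2 together summed to 79.7 ± 2.18 TPM, of which Yaf2 held 78.3% ± 1.91. Bcorl1 at 0.185 ± 0.0636 TPM was among the lowest, and Auts2 had 0 counts in both libraries, which allows up to 0.0556 and 0.0579 TPM at 3 counts. Its deposited intervals were higher, 0.292 to 2.35 and 0.320 to 2.47 TPM, with posterior means of 1.17 and 1.22 TPM, so the files do not agree on a limit for this gene.

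Other Polycomb-group genes and the enzymes that remove the H2A mark were mixed. Of 6 genes for DNA-binding and MBT-domain proteins 4 passed, with Yy1, a zinc-finger factor related to fly Pho, at 61.2 ± 6.81 TPM and Mbtd1 at 16.1 ± 0.651 TPM. Sfmbt2 and L3mbtl1 were at 0.00500 ± 0.00707 and 0.01 ± 0.0141 TPM. Both lay below their deposited intervals in each replicate. Their posterior means were higher, 0.530 and 0.550 TPM for Sfmbt2 and 0.790 and 0.810 TPM for L3mbtl1. Of 12 genes for H2A deubiquitinases and the BAP1 complex 10 passed, led by the deubiquitinase genes Usp16 at 60.4 ± 2.32 TPM and Bap1 at 47.4 ± 0.361 TPM. Mbd6 stood at 0.480 ± 0.127 TPM, and Asxl3 had 0 counts, which allows up to 0.0163 and 0.0170 TPM, with upper deposited bounds of 0.0478 and 0.0503 TPM.

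Enzymes acting on H3K27 in the opposite sense to PRC2 stood below Ezh2. Of 5 demethylase and acetylase genes 4 passed, with a median of 3.835 TPM. The X-linked demethylase gene Kdm6a stood at 12.8 ± 0.467 TPM, and its Y-linked relative Uty, whose product has little activity, at 14.5 ± 2.30 TPM. Kdm6b, an inducible demethylase, stood at 0.385 ± 0.163 TPM and the acetyltransferase gene Crebbp at 3.675 ± 0.898 TPM.

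Rbbp4 and Rbbp7 also serve other complexes, and all 21 genes listed for these passed, with a median of 23.9 TPM. Hat1, the histone acetyltransferase that works with RBBP7 on new histone H4, was highest at 230 ± 9.05 TPM, and the deacetylase gene Hdac2 stood at 136 ± 11.2 TPM. Gatad2b at 3.28 ± 0.863 TPM and Lin37 at 3.515 ± 0.643 TPM were the lowest. RNA levels do not divide Rbbp7 between these complexes and PRC2.

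**Figure D4:**
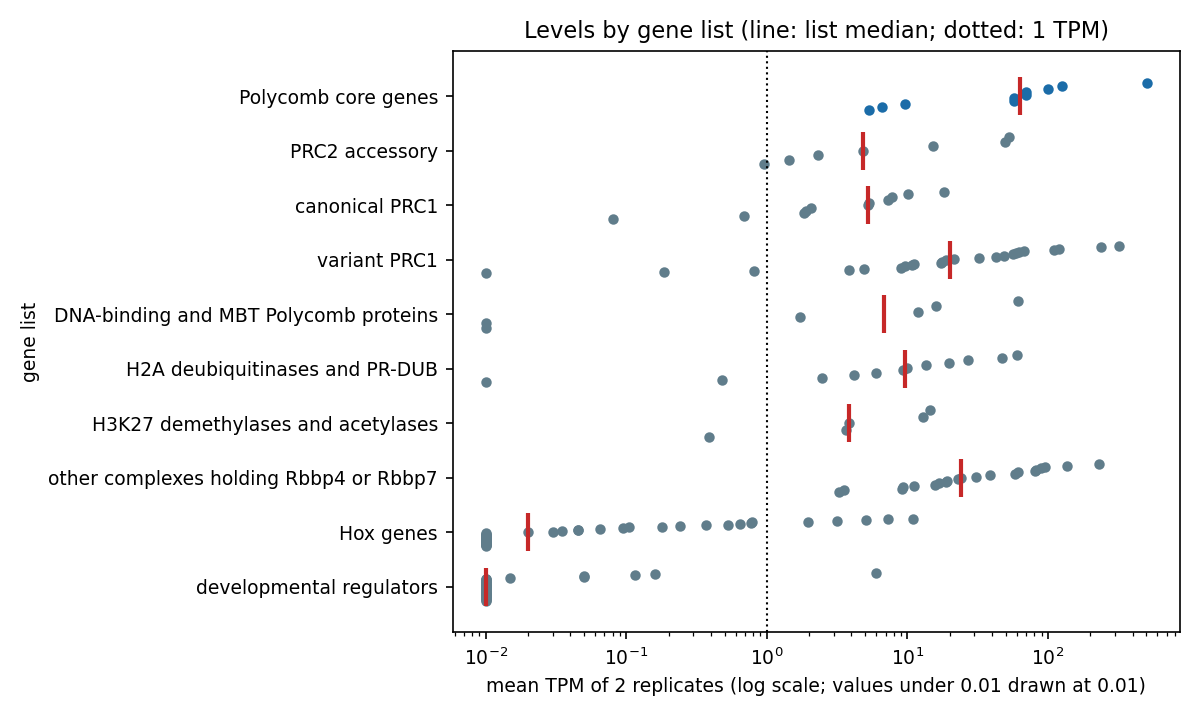
Mean TPM of each gene on a log scale by list, with the list median as a red line, 1 TPM as a dotted line and values under 0.01 drawn at 0.01. The 10 core genes (blue) all lie above 5 TPM with a median of 63.7 TPM, while most Hox genes and developmental regulators lie below 1 TPM.

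Textbook Polycomb targets were mostly at or near 0. Of 39 Hox genes, patterning factors held off by Polycomb outside their domains, 5 reached 1 TPM in both replicates, or 12.8%, and 19 had 0 counts in both libraries. The median was 0.0200 TPM. Of all protein-coding genes 45.9% reached 1 TPM, and the share of them with 0 counts is not given here. Hoxa10 was highest at 11.0 and 11.1 TPM, from 306 and 314 counts, and Hoxc4 followed at 6.59 and 7.93 TPM. Of the others that passed, chosen after their values were seen, Hoxd4 stood at 5.05 ± 0.665 TPM and Hoxb4 at 1.975 ± 0.0919 TPM. At a threshold of 5 TPM, 2 of the 39 passed. Hoxa10 was flanked by Hoxa11 with 0 counts and by Hoxa9 at 0.240 ± 0.0141 TPM, both chosen after their values were seen, so expression within the cluster was uneven.

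Of 32 developmental regulators of other lineages 1 passed and 25 had 0 counts in both libraries, again without a share of all genes at 0 counts. Whether Polycomb keeps such genes low was not tested. Of 4 cell-cycle inhibitor genes linked to Polycomb only Cdkn1a, the p53-responsive inhibitor, passed, at 7.80 ± 0.679 TPM. Cdkn2a, the locus repressed by BMI1 in many cell types, Cdkn2b and Cdkn1c had 0 counts, which allows up to 0.221 and 0.230, 0.123 and 0.128, and 0.0850 and 0.0885 TPM. The files hold RNA levels only, so histone marks at these genes were not measured. These limits cover counting error only, and the upper deposited bounds were 0.340 and 0.358 TPM for Cdkn2a, 0.118 and 0.125 TPM for Cdkn2b and 0.131 and 0.137 TPM for Cdkn1c.

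Like most genes tested, the Polycomb genes stayed within 1.5-fold between replicates. None of the 10 differed by over 1.5-fold in TPM, where 314 of 11661 genes with a mean count of 20 or more did, or 2.69%. With so small a share over all genes, this is not particular to the Polycomb genes. The median absolute difference of the 10 was 0.08 on the log2(TPM + 0.5) scale, against 0.14 for all genes tested. These sets were not matched for count, and the lowest count among the 10 was 321, for Ring1 in replicate 2. With 1 library on each side these are descriptions of this pair, without a p-value, and the pseudocount of 0.5 TPM makes differences of low genes look smaller. The largest was Jarid2, at -0.34, replicate 2 minus replicate 1, followed by Ring1 at -0.25 and Bmi1 at 0.14. Ezh2 at -0.02 and Rbbp7 at 0.02 were closest to 0.

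A TPM difference follows the effective length of a gene as well as its counts. By CPM, counts scaled by library total only, the difference of Jarid2 was -0.07, and its effective length, set by the transcripts given reads, was 4321 and 5330 bases. Rnf2 was -0.08 by TPM and 0.14 by CPM, with an effective length of 2319 and 2711 bases, and was the only one of the 10 genes whose signs were opposite, as were those of 8.60% of all genes tested. Ring1 kept its difference by counts, at -0.26, with effective lengths of 1830 and 1828 bases. By TPM 5 of the 10 genes were higher in replicate 2 and 5 lower. With edgeR's TMM factors on counts 6 were higher and 4 lower, and with scaling to the spike-ins all 10 were higher, where the median of all genes moved by 0.29. Relative to that median the 10 genes ran from -0.25 to 0.17, with 6 above it.

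**Figure D5:**
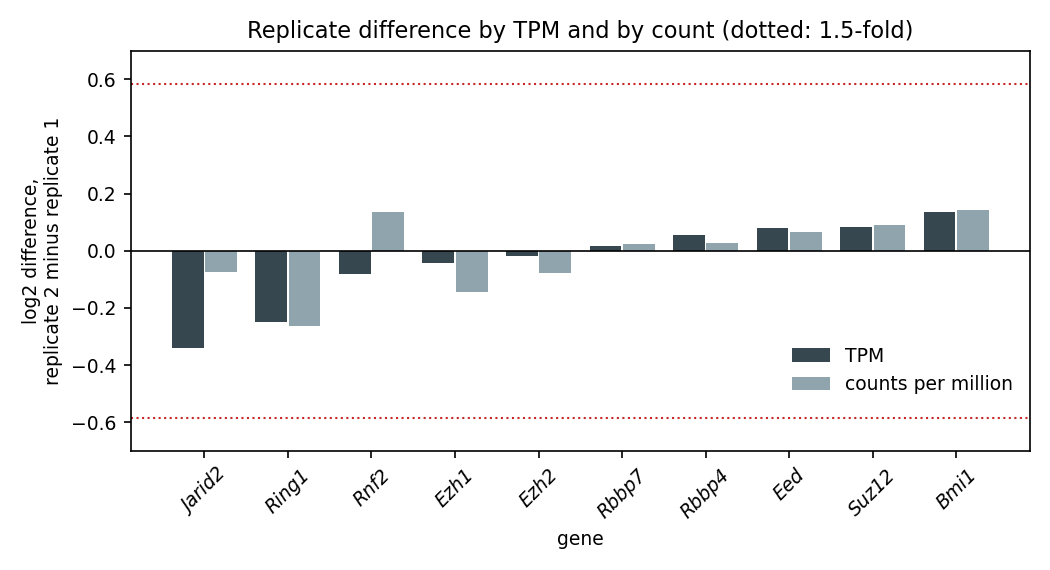
Difference of each Polycomb gene between replicates (replicate 2 minus replicate 1, log2) by TPM (dark) and by CPM (light), with 1.5-fold as dotted lines. No gene reaches 1.5-fold, Jarid2 goes from -0.34 by TPM to -0.07 by counts, and Rnf2 changes sign.

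Genes that resemble a Polycomb gene in their pattern were not sought, since 2 libraries of 1 condition give no pattern.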

How the data were processed

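Both libraries came from CH12.LX and were grouped by the replicate numbers in the labels. The labels call the assay total RNA-seq, their description says polyA+, and RNA above 200 nt with ERCC spike-ins was used. Alignments were to mm10 with GENCODE M4, per the deposited text files, which also list signal tracks by strand. For the aligner and counter, names and versions were not given in the sources used here.

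The authors deposited expected counts per gene and transcript, in which reads shared between features are divided. TPM values, deposited by the authors, are scaled over all features of a library, and FPKM values were deposited beside them. Isoform percent, each transcript's part of its gene's TPM, was deposited by the authors, as were posterior means and SDs, credibility bounds and effective lengths.

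Symbols, coordinates and sequences came from GENCODE M21 on GRCm38: all 71 transcripts of the 10 genes matched, 66 with the same length. Coding sequences were aligned with Biopython 1.88 and copies found with BLAST 2.17.0 (90% identity or more over 300 bases or more). A gene was called expressed at 1 TPM in both replicates. Differences are in log2(TPM + 0.5) over genes with a mean count of 20 or more. The calling step was tested on simulated Poisson counts, with no spread beyond counting error and no change of effective length. edgeR 4.0.16 gave TMM factors on rounded counts. No test between conditions was possible.

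Named are the 10 genes, of each list the 2 highest and 2 lowest (not all ties at 0), paralogs, transcripts with 10% or more of a gene's TPM in either replicate, overlapping models and near-identical copies. Some genes that this rule names are not reported here. The genes and lists were chosen with earlier results of these data known. Whether the separate biosamples were separate cultures is not stated, so the spread may be partly technical.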

Additional observations from a re-analysis of the deposited data

How the results depend on the processing

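All 10 Polycomb genes were at 1 TPM or more under every alternative except a threshold of 5 TPM, where Jarid2 fell out and 9 passed. None of the 10 passed 1.5-fold between replicates under any of 7 alternatives. The Hox count of 5 became 2 at 5 TPM, 7 at 0.5 TPM and 6 with posterior mean TPM, and the partner count of 50 became 37, 53 and 52. The Ezh2 to Ezh1 ratio of 8.73 was 7.46 with posterior mean TPM, 8.96 over protein-coding transcripts, 6.00 per kilobase of all annotated exons and 5.38 with raw counts. Rnf2 to Ring1, 10.4, was 9.08 over protein-coding transcripts and 14.4 with raw counts. Rbbp4 to Rbbp7, 0.114, was 0.101 over protein-coding transcripts, 0.0748 per kilobase of all exons, 0.225 with raw counts and, in an alternative chosen after seeing the data, 0.112 with near-identical copies added. Bmi1 to Pcgf2, 102.6, was 59.1, 170.6 and 192.3 with posterior means, per kilobase of exons and with raw counts. The causes were not tested, beyond what each alternative's own construction shows. Without replicate 1 or 2 the ratios ran from 8.64 to 8.81, 9.76 to 11.1, 0.113 to 0.116 and 87.4 to 118, and the partner count from 50 to 51. Mean levels moved by -2.47% to 43.4% with posterior means (7 of 10 within 1 SD, Jarid2 the most), by up to -16.5% over protein-coding transcripts and by 12.0% to 12.2% over nuclear genes alone. No paired analysis was possible because both libraries belong to 1 group. Pcgf2 rests on 22 and 20 counts, and 2 replicates give an SD with wide error of its own.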
